A study of Mus musculus with 6 samples.

Results

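Cyclic AMP signaling downstream of beta-adrenergic receptors was described through 39 genes listed by symbol, all of which had a row among the 23508 genes of the count table. The list held 4 G protein alpha subunits, 9 adenylyl cyclases, 6 subunits of protein kinase A (PKA), 9 phosphodiesterases, 5 CREB factors and coactivators, 2 Epac exchange factors, and 4 genes for arrestins, a kinase scaffold and an RGS protein. RNA was sequenced from 6 tumors of 4T1, a transplantable mouse mammary carcinoma line that stands for the triple-negative class of the disease. A group of 3 tumors was taken before the first peak of neural activity (before peak), and a group of 3 on the day of that peak (with peak). No treatment or allele is labelled in either group. Host strain, animal and tumor age, and whether each tumor came from its own animal, remain unstated, so each p-value reflects spread among these 6 samples, which may be technical. The series title assigns the recorded activity to the sympathetic nervous system, whose nerves release noradrenaline, a ligand of the beta receptors upstream of these genes.

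Noradrenaline binds beta receptors, which activate the stimulatory G protein Gs, and Gs turns on adenylyl cyclases that make cyclic AMP from ATP. Inhibitory Gi proteins oppose this step, and phosphodiesterases break cyclic AMP down. Cyclic AMP frees the catalytic subunits of PKA from the regulatory ones and opens the Epac exchange factors, and PKA drives transcription through CREB and its CRTC coactivators. Receptor kinases and arrestins dampen the signal. The activity of the pathway is set largely by phosphorylation and by second messenger levels, which transcript counts do not measure.

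Total counts ran from 10591067 to 14549357 per library. Carcinoma epithelial markers, fixed as a list of 10 with Epcam and Krt8, all had counts, and their summed level was 3694 to 4834 CPM (a gene's count scaled to the TMM-adjusted library total) before the peak and 3059 to 4540 CPM with it. The 15 macrophage and monocyte markers summed to 2597 to 3978 CPM before the peak and 4766 to 6685 CPM with it, and the 2 mitochondrial rRNA genes to 311 to 442 and 603 to 667 CPM, both without overlap of the groups. The 20 skeletal muscle markers reached 1836 CPM in with-peak replicate 2 and 1794 CPM in with-peak replicate 3, with 73.4 to 361 CPM elsewhere, and the 8 erythroid and platelet markers summed to 1532 and 2204 CPM there and 159 to 330 CPM elsewhere. B and plasma cell markers summed to 679 CPM in before-peak replicate 3 and to 17.9 to 168 CPM in the other 5 tumors. Adipocyte markers were highest in with-peak replicate 2 and before-peak replicate 3, at 2800 and 1896 CPM, against 811 to 1407 CPM elsewhere. The part of these cell types in the results on pathway genes was not tested beyond the values given beside them, and in bulk tumor RNA fewer cells of a type and less RNA per cell cannot be told apart. The mitochondrial rRNA genes were listed as a marker of RNA quality. As they differed with group, RNA quality and the peak cannot be told apart here, and the part of RNA quality was not tested.

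The question for the pathway is whether its transcripts differed on the day of the peak. Of the 39 genes, 36 had enough counts to be tested, and none passed in either direction. The edgeR quasi-likelihood test with Benjamini-Hochberg adjustment over 16755 genes (threshold 0.05) called 0 pathway genes, where it called 0% of all genes, and the smallest adjusted p among the pathway genes was 0.397. DESeq2 and limma-voom also called 0 pathway genes, where they called 1.59% and 0% of all genes. At an unadjusted p under 0.05 DESeq2 gave 1 higher and 3 lower, beside 9.42% of all genes in either direction. By the same threshold limma-voom gave 1 higher and 4 lower, beside 9.82% of all genes in either direction. At an unadjusted edgeR p under 0.05 there were 6 pathway genes, or 16.7%, against 9.5% of all genes. Rgs2 was the 1 higher with peak, where 6.12% of all genes were, and Adcy7, Pde7a, Rapgef4, Crtc2 and Crtc1 were the 5 lower, where 3.38% of all genes were.

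Most differences were small. Log2 fold changes (log2FC) of with-peak over before-peak tumors ran from -1.23 to 0.55 with a median of -0.04, beside a median of -0.02 over all genes tested, and 13 of 36 were positive, beside 47.7% of all genes. The 95% interval of the log2FC, which is not adjusted for the number of genes, lay between -1 and 1 for 30 of the 36 genes and between -0.5 and 0.5 for 12, beside 65.9% and 29.3% of all genes tested. Adcy1, Adcy5, Adcy9, Prkar1b, Pde8a and Rapgef4 were those with intervals reaching past -1 or 1. In 9 of the 36 tested pathway genes the groups did not overlap, where this held for 15.5% of all genes tested. Gnas, Arrb2 and Rgs2 were higher in every with-peak tumor (8.13% of all genes), and Adcy7, Prkacb, Pde7a, Crtc1, Crtc2 and Rapgef4 were lower in every one (7.38% of all genes).

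**Figure D1:**
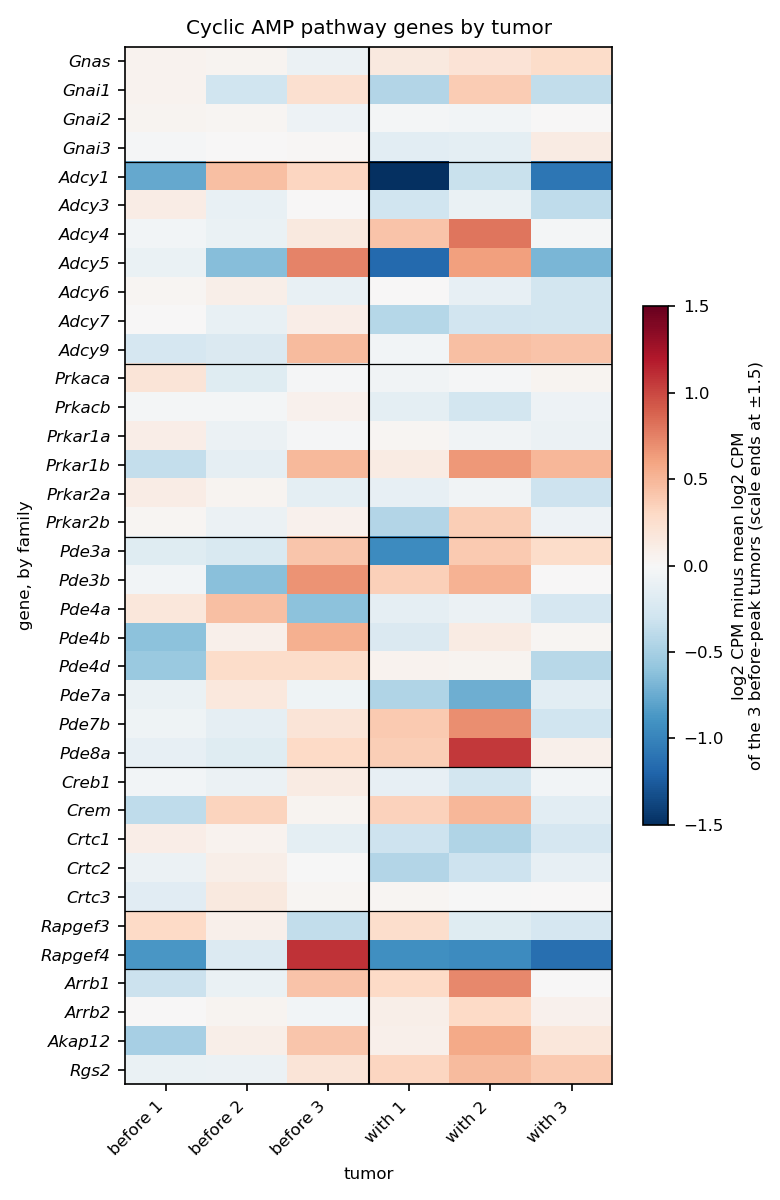
Level of the 36 tested pathway genes in each of the 6 tumors (columns), as log2 CPM minus the mean log2 CPM of the 3 before-peak tumors, with genes grouped by family (black lines). Most cells lie near 0, and among the strongest colors are Adcy1 and Adcy5 in with-peak replicate 1 (low) and Pde8a in with-peak replicate 2 (high). Rapgef4 is also among them, high in before-peak replicate 3 and low in before-peak replicate 1 and the 3 with-peak tumors.

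**Figure D2:**
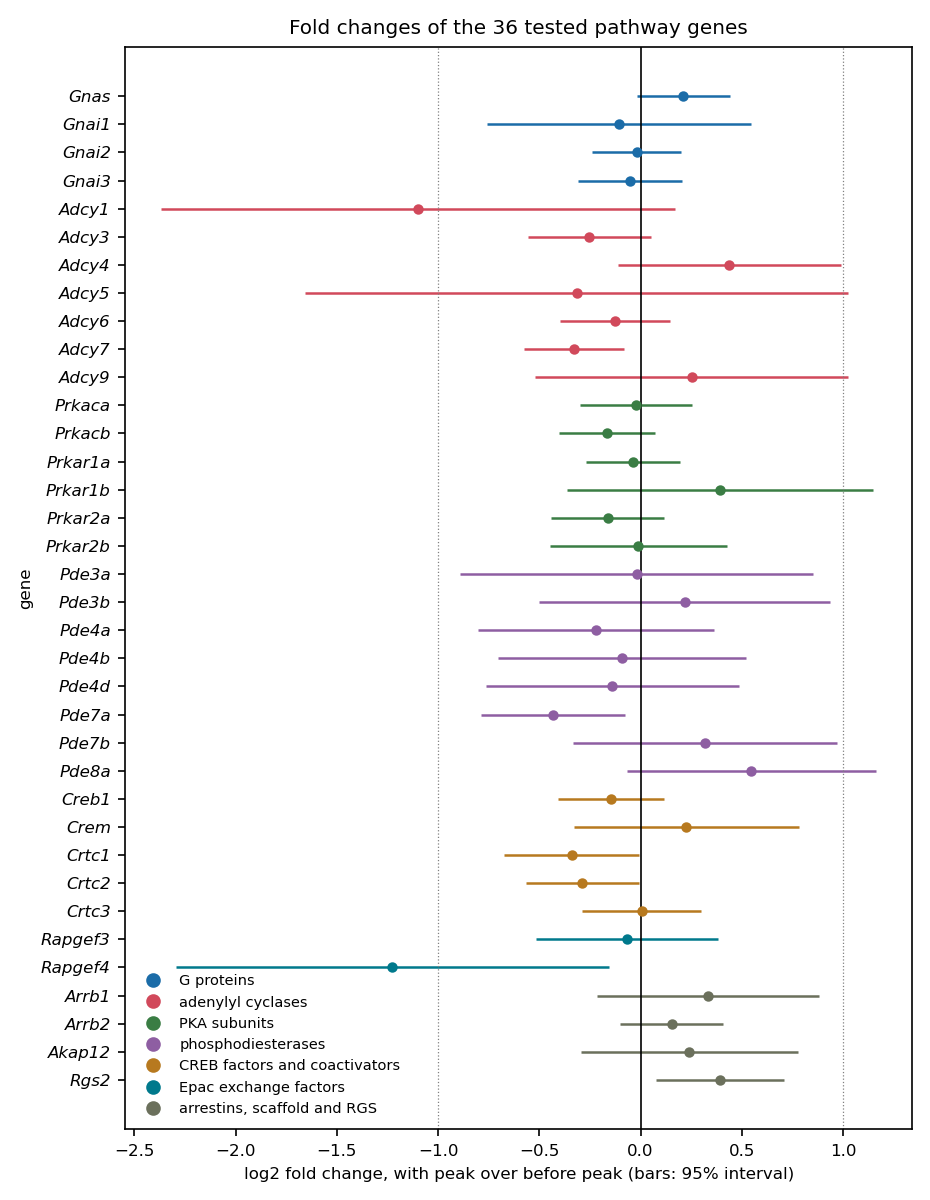
Log2 fold change of with-peak over before-peak tumors for each tested pathway gene (points, colored by family) with its 95% interval (bars), and dotted lines at -1 and 1. The intervals of 30 of the 36 genes lie between the dotted lines, and that of Rapgef4 is among the widest.

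None of the 4 G protein genes passed, and Gnas alone had a positive log2FC. Gnas, which encodes Gs alpha (ENSMUSG00000027523, GRCm38 chromosome 2, 174284320 to 174346744), was at 759, 749 and 685 CPM before the peak and at 811, 840 and 887 CPM with it, in the order of replicates 1, 2 and 3, which holds for all values per tumor. Every with-peak tumor lay above every before-peak tumor, and the log2FC of 0.21 (SE 0.10, 95% interval -0.02 to 0.44) did not pass (edgeR adjusted p = 0.565). Gnai2, the main inhibitory alpha subunit of these tumors, was at 814, 808 and 749 CPM before the peak and at 776, 770 and 794 CPM with it. Its groups overlapped, with a log2FC of -0.02 (95% interval -0.24 to 0.20). Gnai3 and the low Gnai1, also inhibitory subunits, had log2FC of -0.05 and -0.11.

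Per kilobase of annotated exon, Gnai2 had the highest level of the whole list at 208 CPM per kb, followed by Prkar1a at 82.9, Gnas at 70.5, Gnai3 at 62.5 and Prkaca at 35.9 CPM per kb. The levels of Gnas and Gnai3 overlapped over the 6 tumors, at 61.2 to 79.3 and 57.2 to 69.3 CPM per kb. The annotated exon length used for Gnas includes alternative first exons, and which exons were counted is not known, so its level per kilobase is approximate. The ratio of Gnas to the sum of the 3 inhibitory subunits, per kilobase, was 0.241, 0.239 and 0.230 before the peak and 0.274, 0.283 and 0.282 with it. This ratio does not depend on library scaling, and its mean of 0.280 ± 0.0051 (SD, n = 3) in with-peak tumors lay above that of 0.237 ± 0.0059 (SD, n = 3) in before-peak tumors. It was chosen after the values were seen and is given without a test. Gnas shares exon bases with Nespas and Gm20721 on the opposite strand, whose reads cannot be told apart from its own in libraries without strand.

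The adenylyl cyclases were led by Adcy7, a calcium-insensitive isoform common in blood cells, at 17.8 CPM per kb. Next came Adcy6 at 10.3 and Adcy3 at 5.81 CPM per kb. Adcy4, Adcy5, Adcy9, Adcy2, Adcy1 and Adcy8 had 2.63, 2.45, 0.769, 0.193, 0.154 and 0.019 CPM per kb, and the levels of Adcy4 and Adcy5 overlapped. Adcy7 made up 46.2% ± 0.51 of the family in before-peak tumors and 42.4% ± 3.74 in with-peak tumors (SD, n = 3), and Adcy6 25.2% ± 3.27 and 26.4% ± 3.31. With-peak replicate 3 had an Adcy7 share of 46.6%, the same as before-peak replicate 3, so the shares of the groups overlapped.

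Adcy7 (chromosome 8, 88272403 to 88329962) had the smallest p-value of the list. It was at 133, 123 and 143 CPM before the peak and at 99.1, 109 and 110 CPM with it. All with-peak tumors lay below all before-peak tumors, with a log2FC of -0.33 (SE 0.11, 95% interval -0.58 to -0.08, edgeR unadjusted p = 0.014, adjusted p = 0.397). Leaving out any 1 library gave log2FC of -0.38 to -0.28 with unadjusted p of 0.0142 to 0.054. The macrophage and monocyte markers, which are of a cell type that expresses Adcy7, summed to more in every with-peak tumor, and their part in the Adcy7 result was not tested.

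In the other tested cyclases the groups overlapped. Adcy3, which is known from olfactory signaling and is widely expressed, was at 42.4, 36.4 and 39.6 CPM before the peak and at 32.1, 36.8 and 30.4 CPM with it (log2FC -0.25, SE 0.14, edgeR adjusted p = 0.608). It shares 1380 of 6246 exon bases with Cenpo on the opposite strand. Adcy4, an isoform of endothelial cells, was at 10.1, 9.71 and 11.5 CPM before the peak and at 14, 18.2 and 10.2 CPM with it, so that with-peak replicate 3 lay within the before-peak range (log2FC 0.44, SE 0.25, edgeR adjusted p = 0.629). The 10 endothelial markers had the same order of with-peak tumors, with sums of 589, 826 and 406 CPM. Before the peak their sums were 443, 536 and 533 CPM, in another order than Adcy4. The part of endothelial cells in the Adcy4 values was not tested.

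Adcy5, a calcium-inhibited cyclase, was at 16.8, 11.6 and 30.2 CPM before the peak and at 8.07, 27.7 and 11.3 CPM with it. The highest values were those of before-peak replicate 3 and with-peak replicate 2, which are the tumors highest in adipocyte markers. They are also the tumors highest in the 10 fibroblast markers, with sums of 12132 and 17962 CPM, against 7139 to 10774 CPM elsewhere. The log2FC of Adcy5, -0.32, had a wide interval of -1.66 to 1.02. Pde3b, the adipocyte phosphodiesterase through which insulin lowers cyclic AMP, had its highest values, 30.2 and 27.3 CPM, in the same tumors. Adrb3, the beta receptor of fat cells, was at 10.8, 4.15 and 24.7 CPM before the peak and at 4.21, 11.9 and 4.75 CPM with it, with those tumors again on top. Prkar2b, the PKA regulatory subunit of adipose and nervous tissue, followed in the same tumors with 40.9 and 50.8 CPM, against 28.9 to 40.1 CPM elsewhere. Adcy5, Pde3b, Adrb3 and Prkar2b were set together after their values were seen, and the part of adipocytes or fibroblasts was not tested. The pattern was not particular to these 4 genes. Arrb1, at 59.7 and 72.9 CPM, and Akap12, at 33.7 and 37.5 CPM, were also highest in before-peak replicate 3 and with-peak replicate 2. So were Gnai1, Adcy9, Pde3a and Pde4b.

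Adcy6 had a log2FC of -0.13 and Adcy9 one of 0.25. Adcy1, a calmodulin-stimulated cyclase of neurons, rested on 8 to 43 counts per library, at 1.44, 3.37 and 3.08 CPM before the peak and 0.561, 1.96 and 1.16 CPM with it. Its log2FC of -1.10 (SE 0.56, edgeR adjusted p = 0.590) had an interval of -2.37 to 0.17, and before-peak replicate 1 lay among the with-peak tumors. Adcy2, also a neuronal isoform, had 6, 6 and 9 counts before the peak and 11, 17 and 11 with it, without overlap, and Adcy8 had 0 to 6 counts per library. Both were below the filter and were not tested.

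**Figure D3:**
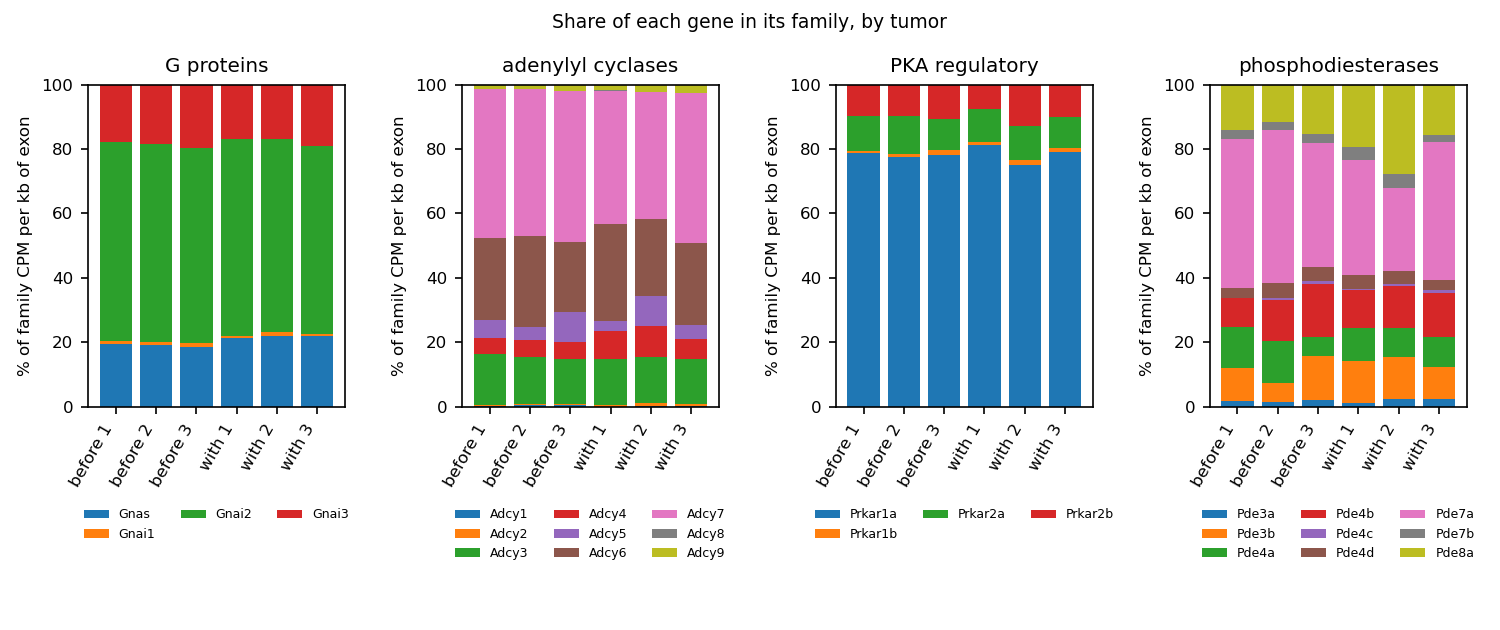
Share of each gene in the summed CPM per kilobase of exon of its family (bars add to 100%), in each of the 6 tumors, for G proteins, adenylyl cyclases, PKA regulatory subunits and phosphodiesterases. Gnai2, Adcy7 and Prkar1a are the largest parts of their families in every tumor, and the Pde8a share is largest, at 27.7%, in with-peak replicate 2.

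PKA subunits showed no change that passed. Of the 6 genes, 5 had 95% intervals between -0.5 and 0.5, and 0 had an edgeR unadjusted p under 0.05. Prkar1a, the type I regulatory subunit that holds the kinase inactive (chromosome 11, 109649405 to 109669656), was at 388, 342 and 359 CPM before the peak and at 370, 349 and 342 CPM with it. The groups overlapped, with a log2FC of -0.04 (SE 0.10, 95% interval -0.27 to 0.20). Prkar1a made up 78.1% ± 0.62 of regulatory subunit transcripts per kilobase in before-peak tumors and 78.5% ± 3.10 in with-peak tumors (SD, n = 3). Prkar2a and Prkar2b, the type II subunits that bind anchoring proteins, followed at 11.1 and 10.7 CPM per kb with overlapping levels, and Prkar1b was low at 1.19 CPM per kb.

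Prkaca, the catalytic subunit with the higher level per kilobase, was at 102, 79.1 and 88.2 CPM before the peak and at 85.9, 88.1 and 91.7 CPM with it. All with-peak values fell within the before-peak range (log2FC -0.02, 95% interval -0.30 to 0.25). Prkacb, the other catalytic subunit, was at 147, 147 and 157 CPM before the peak and at 136, 124 and 142 CPM with it, lower in every with-peak tumor by a narrow margin (log2FC -0.17, SE 0.11, edgeR adjusted p = 0.673). In CPM Prkacb was above Prkaca in each tumor, so their ranking depends on the annotated exon lengths, 8772 bases for Prkacb and 2488 for Prkaca. Regulatory transcripts per kilobase were 2.02 ± 0.073 times the catalytic ones in before-peak tumors and 2.05 ± 0.15 times in with-peak tumors (SD, n = 3).

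Phosphodiesterases were low compared with the cyclases, with a summed level per kilobase that was 0.530 ± 0.057 of the cyclase sum in before-peak tumors and 0.576 ± 0.017 in with-peak tumors (SD, n = 3). This sum covers the 9 phosphodiesterases listed and no others. Pde7a, a cyclic AMP specific enzyme that is insensitive to rolipram (chromosome 3, 19223108 to 19311322), was the most abundant at 8.64 CPM per kb. It was at 71.4, 85.9 and 73.6 CPM before the peak and at 56.0, 46.1 and 68.9 CPM with it. No with-peak tumor reached the before-peak range, but with-peak replicate 3 came close to it, and the log2FC of -0.43 (SE 0.16, 95% interval -0.79 to -0.08, edgeR unadjusted p = 0.0218) did not pass (adjusted p = 0.444). Without 1 library at a time, its log2FC was -0.59 to -0.31.

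Pde8a, a high-affinity cyclic AMP phosphodiesterase, was next at 3.82 CPM per kb, with 11.4, 11 and 15.3 CPM before the peak and 16.1, 25.9 and 13.1 CPM with it. With-peak replicate 2 stood above all others and with-peak replicate 3 lay within the before-peak range (log2FC 0.55, SE 0.27, edgeR adjusted p = 0.577). With-peak replicate 2 was the tumor highest in skeletal muscle, fibroblast, adipocyte, macrophage and monocyte, endothelial, and pericyte and smooth muscle markers. Skeletal muscle markers were nearly as high in with-peak replicate 3, at 1794 against 1836 CPM. The part of these cell types was not tested. Without with-peak replicate 2, the log2FC of Pde8a was 0.21 (edgeR unadjusted p = 0.407). Omitting before-peak replicate 3 gave 0.71 and omitting with-peak replicate 3 gave 0.74 (edgeR unadjusted p = 0.0378 and 0.0289). Pde7b and Pde3b also had positive log2FC, of 0.32 and 0.22, with overlapping groups.

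The Pde4 genes, which hydrolyze most cyclic AMP in immune cells and which PKA activates, included 3 that were tested, and none passed though all 3 log2FC were negative. Pde4b, the most abundant of them, was at 19.1, 31.1 and 42.7 CPM before the peak and at 25.2, 31.9 and 30.1 CPM with it. Its with-peak values lay inside the before-peak range (log2FC -0.09, 95% interval -0.70 to 0.52). Pde4a and Pde4d had log2FC of -0.22 and -0.14, and Pde3a, a cyclic GMP-inhibited enzyme of heart and smooth muscle, one of -0.02. Pde4c had 2 to 15 counts per library and was not tested.

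**Figure D4:**
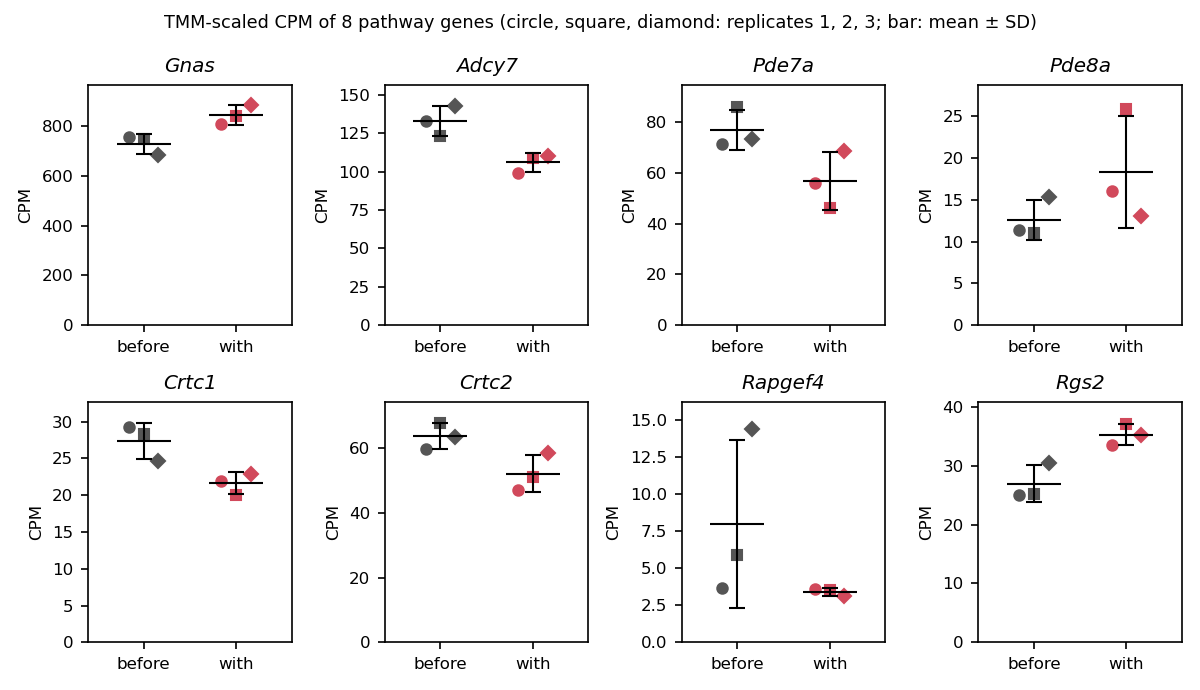
TMM-scaled CPM of 8 pathway genes in each tumor (circle, square and diamond for replicates 1, 2 and 3), with mean and SD per group as bars. The 3 with-peak tumors lie apart from the 3 before-peak tumors for Gnas, Adcy7, Pde7a, Crtc1, Crtc2, Rapgef4 and Rgs2, narrowly so for several, and overlap for Pde8a.

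In the transcription arm, 2 of the 3 coactivators were lower in every with-peak tumor, as were 7.38% of all genes, and none of the 5 genes passed. Crtc2, the CREB coactivator that responds to cyclic AMP in liver and other tissues (chromosome 3, 90254163 to 90264125), was at 59.6, 67.6 and 63.3 CPM before the peak and at 46.9, 51.0 and 58.3 CPM with it. The with-peak tumors were all lower, with-peak replicate 3 by little (log2FC -0.29, SE 0.12, edgeR unadjusted p = 0.0445, adjusted p = 0.519). Crtc1, a coactivator prominent in brain, was at 29.2, 28.3 and 24.7 CPM before the peak and at 22.0, 20.1 and 22.9 CPM with it, again without overlap (log2FC -0.34, SE 0.15, edgeR unadjusted p = 0.046, adjusted p = 0.519). Crtc3, the remaining family member, was at 32.1, 39.9 and 36.7 CPM before the peak and at 36.9, 35.9 and 36.2 CPM with it. DESeq2 gave unadjusted p of 0.0732 for Crtc2 and 0.0722 for Crtc1, above the 0.05 that edgeR's values fell under.

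Creb1, the cyclic AMP response element binding protein, was at 90.5, 87.8 and 102 CPM before the peak and at 85.4, 77.1 and 90.5 CPM with it (log2FC -0.15, SE 0.12, edgeR adjusted p = 0.733). Crem, whose inducible short form ICER represses the same sites as a feedback, was at 10.5, 17.1 and 14.1 CPM before the peak and at 17.3, 19.2 and 12.2 CPM with it. The groups overlapped for both, and the log2FC of Crem was 0.23 (SE 0.25, 95% interval -0.33 to 0.78), with 0.058 to 0.40 when 1 library was left out. The counts do not separate the ICER transcript from the full-length forms of Crem.

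CREB binds the palindrome TGACGTCA, the cyclic AMP response element, and more weakly its core TGACG, which reads CGTCA on the other strand and lies inside the palindrome on either strand. RefSeq promoter windows (GRCm38.p6, 250 bases before to 50 bases after a start) matched 28 of the 39 genes by symbol, with 52 windows. The palindrome was found in the windows of 1 of the 28 genes, Prkar1a, beside 2.03% of 27025 genes with windows. The core, searched on both strands and counted also within the palindrome, was found in 14 of the 28 genes, beside 23.0% of all genes with windows, and in 13 of 14 CREB target genes. By window these are 34.6% for the pathway genes and 20.8% for all. These stretches are shown because they set Prkar1a, with a log2FC near 0, beside Rgs2, which had the smallest p among positive changes of the list, and beside Rap1b and Areg of the wider pathway, whose log2FC had opposite signs. Capitals mark the palindrome or core, 5′ to 3′ on the strand of the gene.
Prkar1a, chr11:109650889-109650918, plus strand, 49 bases before a start: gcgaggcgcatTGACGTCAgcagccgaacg
Rgs2, chr1:144004200-144004228, minus strand, 67 bases before the start: ttggggcgtggcTGACGcctccaggtccc
Rgs2, chr1:144004318-144004346, minus strand, 185 bases before the start: atgcggcgcctaCGTCAacagcgccctcg
Rap1b, chr10:117845998-117846027, minus strand, 42 bases before the start: ggctgaacgccTGACGTCAaggcgacaccg
Areg, chr5:91139527-91139556, plus strand, 61 bases before the start: gggctggtccgTGACGTCAcgggcggtggc
Distances are those of the first base in capitals. A match describes the letters of the window and does not show that CREB binds there in these tumors, and a promoter without one may hold such a site elsewhere.

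The Epac branch carries cyclic AMP signals that bypass PKA by activating the small G protein Rap1. Rapgef3 (Epac1) was the main form at 10.8 CPM per kb, with 84.4, 72.4 and 53.0 CPM before the peak and 82.3, 60.3 and 57.4 CPM with it. The groups overlapped (log2FC -0.07, SE 0.20, 95% interval -0.52 to 0.38). Rapgef4 (Epac2, chromosome 2, 71981240 to 72257474), a form of neurons and endocrine cells, was at 3.69, 5.87 and 14.4 CPM before the peak and at 3.58, 3.53 and 3.10 CPM with it. Its log2FC of -1.23 (SE 0.47, edgeR unadjusted p = 0.029, adjusted p = 0.472) was the largest of the list in size, and before-peak replicate 3 held 173 of its counts against 32 to 75 in the other libraries. Without before-peak replicate 3, the log2FC of Rapgef4 was -0.49 with an edgeR unadjusted p of 0.223. That tumor was the highest in B and plasma cell, T and NK cell, and Schwann cell and glia markers. Its T and NK cell markers summed to 216 CPM, against 18.2 to 63.6 CPM elsewhere. The part of these cell types was not tested. With all 6 tumors, limma-voom gave Rapgef4 an unadjusted p of 0.0935. Both Epac genes share exon bases with antisense transcripts.

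All 4 genes of the arrestin, scaffold and RGS group had positive log2FC, and none passed. Rgs2, an RGS protein that restrains G protein signaling and that cyclic AMP is known to induce (chromosome 1, 143999338 to 144004161), was at 25, 25.1 and 30.5 CPM before the peak and at 33.5, 37.1 and 35.1 CPM with it. Every with-peak tumor lay above every before-peak tumor, with a log2FC of 0.39 (SE 0.14, 95% interval 0.08 to 0.71, edgeR unadjusted p = 0.0204, adjusted p = 0.435). Without 1 library at a time, the log2FC of Rgs2 was 0.34 to 0.49 and the unadjusted p was 0.0119 to 0.0703.

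Arrb2, the beta-arrestin that dominates in these tumors at 25.3 CPM per kb, was at 68.3, 69.9 and 66.2 CPM before the peak and at 72.6, 83.7 and 71.1 CPM with it. The groups did not overlap, though the gap was small (log2FC 0.15, SE 0.11, edgeR adjusted p = 0.713). Arrb1, the other beta-arrestin, was at 35.3, 41.3 and 59.7 CPM before the peak and at 54.4, 72.9 and 44.3 CPM with it, with overlap. Its log2FC of 0.33 became 0.12 on omitting with-peak replicate 2, 0.18 on omitting before-peak replicate 1 and 0.58 on omitting before-peak replicate 3 (edgeR unadjusted p = 0.621, 0.481 and 0.0219). Akap12, a scaffold that anchors PKA, had a log2FC of 0.24 (SE 0.24), with 0.029 to 0.46 when 1 library was left out.

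Upstream of the list, 18 receptors that couple to Gs were listed, of which 14 were tested and 0 passed by edgeR, DESeq2 or limma-voom. At an unadjusted edgeR p under 0.05 there were 3 higher and 2 lower, beside 6.12% and 3.38% of all genes, and the median log2FC was 0.34, beside -0.02 over all genes. Adrb1, the beta receptor best known from heart, was low at 0.351 to 2.27 CPM over the 6 tumors. Adrb1 and Adrb3 had log2FC of 0.42 and -0.92, each with overlapping groups. The groups did not overlap in 5 of the 14 tested receptors, 3 higher and 2 lower, beside 8.13% and 7.38% of all genes. Among them were the 3 receptors with the smallest p-values, which are given next. Ptger2, the EP2 receptor for prostaglandin E2, was at 1.53, 2.43 and 2.5 CPM before the peak and at 5.68, 4.62 and 4.46 CPM with it (log2FC 1.19, SE 0.35, edgeR adjusted p = 0.352). Adora2b, a low-affinity adenosine receptor, was at 4.01, 2.90 and 6 CPM before the peak and at 7.50, 6.89 and 8.83 CPM with it (log2FC 0.85, SE 0.32, edgeR adjusted p = 0.466). Adcyap1r1, the PAC1 receptor for the neuropeptide PACAP, was lower in every with-peak tumor, at 6.02, 7.05 and 9.67 CPM before the peak and 4.56, 4.54 and 3.69 CPM with it (log2FC -0.83, SE 0.29, edgeR adjusted p = 0.421). Ptger2 overlaps an antisense gene.

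A list of 40 other genes of the pathway held 32 that were tested, of which 0 passed by edgeR and limma-voom and 1, Pkib, by DESeq2, which called 1.59% of all genes. At an unadjusted edgeR p under 0.05 there were 4 higher and 1 lower, beside 6.12% and 3.38% of all genes, and the median log2FC was -0.04, beside -0.02 over all genes. Pkib, an inhibitor peptide that binds the free catalytic subunit of PKA (chromosome 10, 57631981 to 57741112), was at 6.10, 6.26 and 6.58 CPM before the peak and at 13.7, 15.4 and 11.8 CPM with it. The groups did not overlap, with a log2FC of 1.11 (standard error 0.22, edgeR adjusted p = 0.153, DESeq2 adjusted p = 0.0038, range over alternatives 0.0038 to 0.743). Leaving out 1 library at a time gave log2FC of 1.01 to 1.21 for Pkib. The other inhibitor genes, Pkia and Pkig, had log2FC of 0.24 and 0.20 with overlapping groups.

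Rap1b, a Rap1 protein that Epac activates and whose promoter window holds the palindrome shown above, was at 294, 266 and 294 CPM before the peak and at 358, 408 and 359 CPM with it (log2FC 0.40, SE 0.11, edgeR adjusted p = 0.317). Rap1a, its close relative, had a log2FC of -0.03. Grk5, a kinase that phosphorylates active receptors, was at 17.3, 14.9 and 19.3 CPM before the peak and at 21, 28.4 and 22.3 CPM with it (log2FC 0.48, SE 0.18, edgeR adjusted p = 0.472). Grk2, the main beta receptor kinase, had a log2FC of -0.14 with overlapping groups.

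Genes that CREB is known to induce were read as a downstream list, and none passed by edgeR. Of the 20 listed, 15 were tested, 5 had a positive log2FC, beside 47.7% of all genes, and 10 a negative one, and the median was -0.22, beside -0.02 over all genes. By limma-voom 0 passed and DESeq2, which called 1.59% of all genes, called 1, Areg, as lower. At an unadjusted edgeR p under 0.05, 0 were higher and 2 lower, beside 6.12% and 3.38% of all genes. Areg, the growth factor amphiregulin (chromosome 5, 91139599 to 91148432), was at 50.2, 32.0 and 44.7 CPM before the peak and at 22.9, 28.8 and 19.2 CPM with it. All with-peak tumors were lower, with a log2FC of -0.84 (standard error 0.21, edgeR adjusted p = 0.259, DESeq2 adjusted p = 0.030, range over alternatives 0.030 to 0.802). The 10 carcinoma epithelial markers, a cell type that makes amphiregulin, had a median log2FC of -0.23. Of these markers, 2 had a positive and 8 a negative log2FC, beside 47.7% positive over all genes. The edgeR unadjusted p was under 0.05 for 3 lower and 0 higher, beside 3.38% and 6.12% of all genes. The sums of the markers overlapped, at 4487, 4834 and 3694 CPM before the peak and 3692, 3059 and 4540 CPM with it. With-peak replicate 3, the tumor lowest in Areg, had the highest of the with-peak sums. The part of these cells in the Areg result was not tested. Junb was at 391, 494 and 382 CPM before the peak and at 378, 313 and 294 CPM with it (log2FC -0.36, SE 0.14, edgeR adjusted p = 0.474), and Ccna2, a cyclin, had a log2FC of -0.22. The acute CREB targets Fos, Nr4a1, Sik1 and Per1 had log2FC of 0.0038, -0.25, -0.0034 and 0.38, with overlapping groups.

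**Figure D5:**
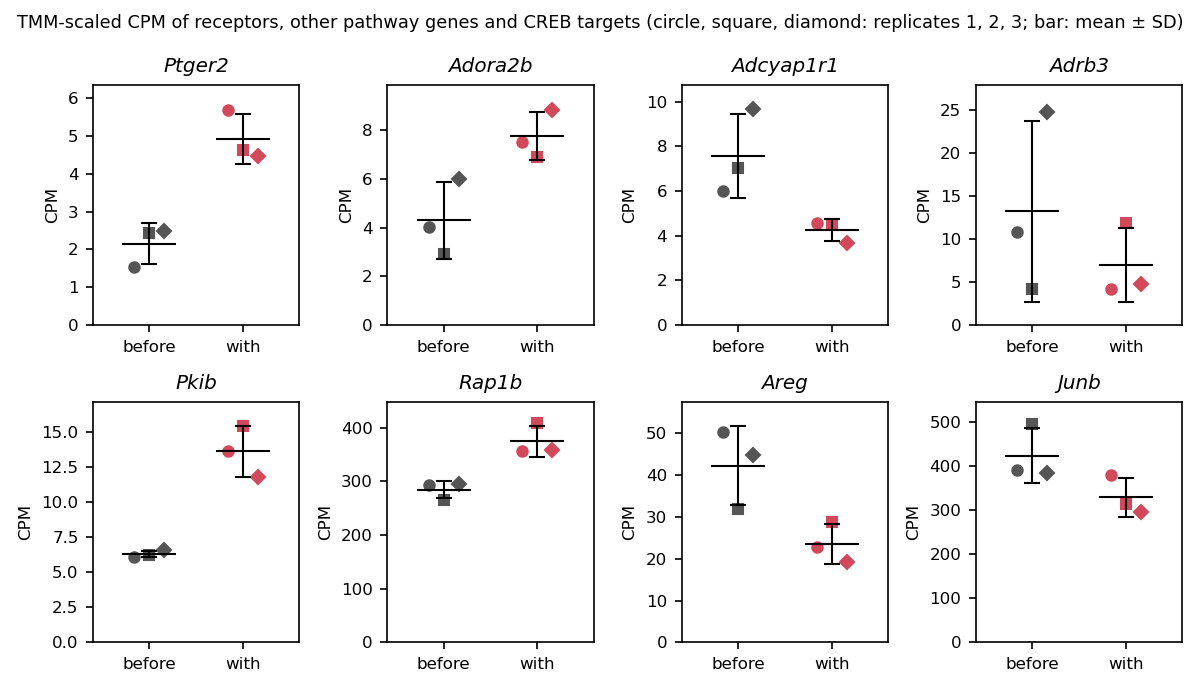
TMM-scaled CPM of 4 receptors coupled to Gs (top row), 2 other pathway genes and 2 CREB targets (bottom row) in each tumor (circle, square and diamond for replicates 1, 2 and 3), with mean and SD per group as bars. The 3 with-peak tumors lie above the before-peak tumors for Ptger2, Adora2b, Pkib and Rap1b and below them for Adcyap1r1, Areg and Junb, while those of Adrb3 overlap.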

How the data were processed

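Poly(A) RNA of the 6 tumors gave paired-end libraries without strand marking, per the labels' protocols. The authors deposited raw counts per gene, 1 column per tumor; FastQC, STAR and mm10 are named in the submitters' processing notes. The counter and its annotation were not given in the sources used here. Symbols, positions and exon lengths came from GENCODE M21 (GRCm38), which matched 23479 of 23508 genes. Counts were scaled by TMM and filtered by filterByExpr (minimum count 10, minimum total 15), and 16755 genes were tested with the edgeR 4.0.16 quasi-likelihood test (robust, two-sided, Benjamini-Hochberg, threshold 0.05; R 4.3.3). Alternatives used limma 3.58.1, DESeq2 1.42.0 and other scalings and filters. The SE is the log2 fold change over the square root of F. The script was tested on simulated data.

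Pathway genes and lists were chosen with earlier results of these data known. Values per tumor are given for the 14 genes with the smallest p-values, genes fixed by role and the most abundant of each family, and, from each of the receptor, other pathway and CREB target lists, for up to 3 genes with the smallest p-values and for Adrb1 and Adrb3. A further gene of that rule is not reported here. Other tested genes given values per tumor or a fold change by name (Gnai1, Gnai3, Adcy5, Adcy6, Adcy9, Prkar2b, Pde3a, Pde3b, Pde4a, Pde4b, Pde4d, Pde7b, Crtc3, Akap12, Pkia, Pkig, Rap1a, Grk2, Fos, Nr4a1, Sik1, Per1) were chosen after their values were seen. Of the pathway genes, 8 share exon bases with a gene on the opposite strand (Gnas, Adcy3, Adcy6, Pde3a, Pde7a, Crem, Rapgef3, Rapgef4) and 1 with a gene on the same strand (Prkar1b), and reads there cannot be assigned. Chi-square per degree of freedom between libraries of a group was 14.3 to 24.2, so no library was counted as a duplicate.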

Additional observations from a re-analysis of the deposited data

How the results depend on the processing

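Pathway genes called stayed at 0 in both directions under all 17 alternatives, and the median log2 fold change of the pathway genes was -0.10 to 0.03. Over all genes the calls were 0 higher and 0 lower, but 32 and 3 at an adjusted p under 0.1, 26 and 3 with no filter, 242 and 24 by DESeq2, 1 and 0 with the replicate number as a block, 4 and 0 in the fit of 2 against 2 tumors without replicates 3, and 0 to 17 higher and 0 lower without 1 library; the cause was not tested. No label pairs the tumors, and deviations of same-numbered tumors correlated at -0.06, -0.10 and 0.03; the block called 0 pathway genes.

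Pathway genes at an unadjusted p under 0.05 numbered 1 higher and 5 lower. DESeq2 gave 3 lower (9.42% of all genes were under 0.05 in either direction, against 9.5%) and the replicate block 3 lower (6.89%). The fit of 2 against 2 gave 5 higher and 2 lower (10.1%). With-peak replicate 1 alone against 3, where that tumor is assumed to vary like the others, is given by effect size only. Its median log2 fold change was -0.091 over the pathway genes, beside -0.031 over all genes. Without 1 library there were 0 to 4 higher and 0 to 5 lower: leaving out before-peak replicate 3 gave 4 higher and 3 lower (10.9% of all genes), with-peak replicate 3 gave 3 and 3 (9.22%), with-peak replicate 1 gave 1 and 0 (9.77%), before-peak replicate 1 gave 0 and 5 (7.99%), before-peak replicate 2 gave 0 and 2 (7.35%), and with-peak replicate 2 gave 0 and 4 (6.61%).

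Of the 36 log2 fold changes, 21 kept their sign under every alternative that gave a value, and 35 of 576 values changed sign, in 15 genes with a main log2 fold change of at most 0.32 in size. Without 1 library they ran from -0.42 to 0.045 for Gnai1, -0.058 to 0.0016 for Gnai2, -1.02 to 0.14 for Adcy5, -0.11 to 0.081 for Prkaca, -0.079 to 0.013 for Prkar1a, -0.25 to 0.17 for Prkar2b, -0.26 to 0.30 for Pde3a, -0.044 to 0.62 for Pde3b, -0.47 to 0.015 for Pde4a, -0.35 to 0.21 for Pde4b, -0.076 to 0.078 for Crtc3 and -0.24 to 0.089 for Rapgef3. With 2 against 2 they were 0.13 (Gnai1), 0.33 (Adcy5), 0.051 (Prkar2b), 0.072 (Pde3a), 0.19 (Pde4b) and 0.12 (Pde4d), and with with-peak replicate 1 alone 0.0026 (Adcy6), -0.091 (Adcy9), 0.023 (Prkar1a) and 0.23 (Rapgef3). Crtc3 turned to -0.053 with library size alone and -0.0032 with upper quartile scaling. The same ranges were 0.21 to 0.63 for Adcy4, 0.12 to 0.52 for Adcy9 and 0.083 to 0.55 for Pde7b, with 1 library left out. Genes at low counts, such as Adcy1 and Adcy9, carry large counting error.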
